A study of Homo sapiens with 36 samples.

Results

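CTCF binding after knockdown of CHD3 was compared with binding after a control small interfering RNA by setting 2 peak lists against each other, one named siCHD3 and one named siNC. A siNC peak was called kept if at least 1 bp of it was covered by a siCHD3 peak, and missing otherwise. A siCHD3 peak was called shared if it touched a siNC peak, and added otherwise. On chromosomes 1 to 22 and X the lists held 70589 peaks of the 179333 in all 6 lists of the series. Of 36270 siNC peaks, 23414 were kept and 12856 missing (35.4%). Of 34319 siCHD3 peaks, 23120 were shared and 11199 added (32.6%). Every share of a subset below is read against these shares of the whole lists.

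The cells were HEK293T, a human embryonic kidney line, that received a small interfering RNA labelled siNC or one directed at CHD3, and chromatin was immunoprecipitated with an antibody to CTCF. Each condition had 3 immunoprecipitates and 3 inputs. The authors' lists are named for the 3 immunoprecipitates together, so each condition is 1 list, no value below has a spread between replicates, and no test between conditions was made. Whether replicates came from separate cultures is not given in the sources used here, nor was the level of CHD3 after knockdown analysed here. Peaks are given with the authors' fold enrichment at the summit, which ranks peaks within 1 list and is not compared between lists. Positions are hg19, counted from 1. Intervals are exact Clopper-Pearson 95% intervals and cover counting error only.

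CTCF, a DNA-binding zinc-finger protein, occupies insulators and loop anchors, where it stops the cohesin ring. CHD3 is an ATP-dependent nucleosome remodeller and one of the alternative motor subunits of NuRD, the complex that joins nucleosome remodelling with removal of histone acetyl groups. Nucleosomes limit the access of CTCF to its sites, and CTCF bound at a site orders the nucleosomes beside it.

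The coverage behind the lists differed. The lowest local background implied by the peaks' fold and p was 2.96 fragments in siNC and 0.445 in siCHD3, a ratio of 6.66, and the median summit pileup was 59 fragments against 15. Of the siNC peaks, 12453 (34.3%) had a summit high enough to pass the weakest siCHD3 p with a chance of at least 0.9 after thinning to the siCHD3 coverage. Among those, 1479 (11.9%, interval 11.3 to 12.5) were missing, against 35.4% of all siNC peaks. The thinning scaled pileup and background alike, by 0.15, and so assumed equal enrichment in both lists. Summits did not all scale this way. At the kept peak chr2:177065673-177066111, a picked one, the pileup was 348 fragments in siNC and 397 in siCHD3. Every value below for peaks with a chance of at least 0.9 rests on this assumption, which was not tested. The share missing was 59.1% where peaks of both lists had to reach a −log10 q of 10, a setting that also removes weak siCHD3 partners. The added share was then 18.3%.

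Missing peaks tended to be narrow. Their median width was 259 bp, against 327 bp for kept peaks, and 66 of them (0.513%) were wider than 500 bp against 1253 kept peaks (5.35%). The share missing was lower in each wider class. It was 69.2% of siNC peaks up to 200 bp (interval 67.3 to 71.2), 40.9% of those over 250 and up to 300 bp, and 13.2% of those over 400 and up to 500 bp. Above 700 bp few were missing. Of 312 peaks over 700 and up to 1000 bp, 5 were missing (1.60%). None of the 164 wider than 1000 bp was, and a count of 0 allows a share of up to 1.83% (3 counts of the total). Up to 500 bp, width moved together with signal in this list. The median summit pileup was 25 fragments in the narrowest class, 53 over 250 and up to 300 bp and 94 over 400 and up to 500 bp. In wider classes the pileup was lower. It was 56 over 500 and up to 700 bp, where 7.24% were missing, 64.5 over 700 and up to 1000 bp and 66 above 1000 bp. The part of pileup in the width pattern was not tested. Among the peaks with a chance of at least 0.9, the medians were 341 bp for missing and 360 bp for kept.

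Added peaks did not follow the same order of widths. Their median of 276 bp lay near the 280 bp of shared siCHD3 peaks, but the share added was high at both narrow and moderately wide peaks. It was 45.2% up to 200 bp, 26.6% over 250 and up to 300 bp, 48.6% over 500 and up to 700 bp (interval 46.3 to 51.0) and 18.6% above 1000 bp. Added peaks over 500 bp numbered 1461, or 13.0% of added peaks, against 2361 (10.2%) of shared peaks. These wide added peaks had a median fold of 6.5, against 4.23 for the 6549 added peaks of at most 300 bp, and 513 of them (35.1%) had another siCHD3 peak within 1 kb, against 15.8% of the narrow ones. Among peaks that reached a −log10 q of 10, with siNC partners held to the same threshold, the added median was 462 bp and the shared median 303 bp.

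**Figure D1:**
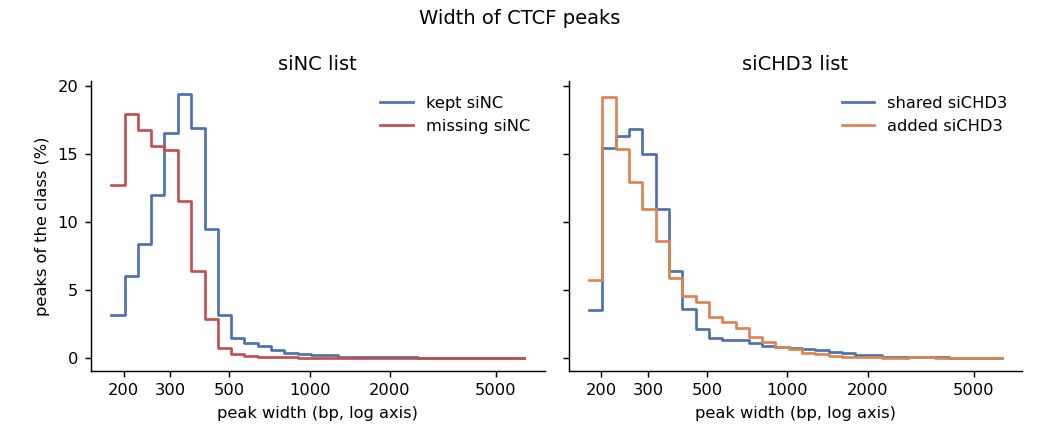
Distribution of peak width (bp, log axis) in the siNC list (left) and the siCHD3 list (right), as the percentage of each class per width bin. Missing siNC peaks (median 259 bp) lie left of kept peaks (327 bp). Medians of added and shared siCHD3 peaks are close (276 and 280 bp). The fullest bin is 202 to 227 bp for added peaks and 254 to 285 bp for shared ones. The added curve lies above the shared one up to 227 bp and between 403 and 902 bp.

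The widest added peak lay at chr20:49507286-49510729, was 3444 bp long and had fold 8.58 with 6 summits. No siNC peak was closer than 35.2 kb. It was followed by chr16:21846040-21848983 (2944 bp, fold 11.8) and chr20:31022623-31024824 (2202 bp, fold 6.92). The siCHD4 list held a peak at each of these 3 places, with folds of 4.37, 6.31 and 4.85, and the siCHD5 list held none at any of them. At the place on chromosome 16, siMBD2 (fold 5.49) and siMBD3 (fold 7.28) also held a peak. The fifth widest added peak, chr10:22617986-22619898, had no peak in any other list. The share of all added peaks with a peak in these lists is not given here. Among the widest missing peaks, the first, at chr10:135500242-135501126, was 885 bp long with fold 2.34, and the second, at chr7:61968803-61969629, had fold 1.26 on a local background of 3807 fragments. Both had backgrounds above the missing median of 7.11 fragments, while the fourth, chr4:13655705-13656433, had fold 6.62 on a background of 7.46.

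The siNC peak of highest fold without a siCHD3 peak within 1 kb was chr7:143875529-143875857, 329 bp wide with fold 16.9, and every other knockdown list held a peak there (siCHD4 4.97, siMBD3 5.30, siMBD2 11.1 and siCHD5 15, as folds of their own lists). Its nearest siCHD3 peak was 50.4 kb away. The 10 strongest missing peaks were 304 to 466 bp wide with a single summit each, and siCHD5 had a peak at all 10 and siCHD4 at 7. The strongest added peak, chr10:74677264-74677913, was 650 bp wide with fold 58.0, stood 41.9 kb from the nearest siNC peak and was called in siCHD4 (fold 15.5) and siMBD3 (fold 10.9) but not in siCHD5 or siMBD2. Of the 10 strongest added peaks, 9 had a siCHD4 peak and 1 had a siCHD5 peak, and 9 had a single summit, with widths from 216 to 652 bp. The exception without a siCHD4 peak was chr1:43148095-43148341, whose fold was 25.2. Some of the 10 strongest added peaks also had a siMBD2 or siMBD3 peak. The shares of all missing and all added peaks with a peak in the other knockdown lists are not given here. These counts at 10 picked peaks therefore have no whole-list share to be read against. All of these comparisons share the siNC list.

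Kept peaks differed in width between the lists, and their summits lay close together. Of the kept siNC peaks, 22801 stood in a one-to-one pair with a siCHD3 peak. In those pairs the median width was 327 bp in siNC and 279 bp in siCHD3, the siCHD3 peak was narrower in 64.1%, and the median ratio of widths was 0.890. The summit stayed in place: the median shift was 11 bp, and 787 pairs (3.45%) shifted by over 100 bp. The difference in width depended on the class. In the 8259 pairs of at most 300 bp in siNC, the median was 256 bp in siNC and 262 bp in siCHD3, and the siCHD3 peak was wider in 57.5%. In the 1075 pairs whose siNC peak exceeded 500 bp, the median was 632 bp in siNC and 740 bp in siCHD3, and the siCHD3 peak was wider in 67.3%. In the 13467 pairs over 300 and up to 500 bp in siNC it was wider in 19.5%. In 875 pairs (3.84%) the siCHD3 peak was more than 2 times as wide. A further 284 siCHD3 peaks, 616 to 7207 bp wide, each covered several siNC peaks, up to 6, whereas 18 siNC peaks covered 2 siCHD3 peaks. Among the strongest kept peaks, chr2:34064953-34065306 was 354 bp wide in siNC (fold 22.9) and 876 bp wide in siCHD3, and chr12:94034221-94035090 was 870 bp in siNC (fold 22.4) and 1510 bp in siCHD3. The widest kept peak, chr16:2811646-2814617, measured 2972 bp in siNC and 5470 bp in siCHD3.

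Added and shared peaks differed in local background. The median background was 0.523 fragments at added peaks and 1.78 at shared siCHD3 peaks. At the lowest value in the list stood 3967 added peaks (35.4%) and 740 shared ones (3.20%). Of the siCHD3 peaks at that lowest value, 84.3% were added (interval 83.2 to 85.3), and of those above it 24.4%. Missing siNC peaks likewise lay on lower background, with a median of 7.11 fragments against 12.4 at kept peaks. From 57.5% on a background under 4 fragments, the share missing was lower in each class up to 9.51% between 20 and 100 fragments, and was 25.7% in the 148 peaks above 100 fragments, whose median fold was 1.85. The part of background in the patterns of spacing and place below was not tested.

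Isolated control peaks were missing more often than close ones. The median gap to the nearest other siNC peak was 21208 bp for missing and 15890 bp for kept peaks. The share missing was 22.2% where the gap was at most 1 kb (interval 20.4 to 24.0), 35.6% from 10 to 50 kb and 45.3% from 100 to 500 kb (interval 43.5 to 47.2). The order was the same in narrow and medium widths. Of peaks up to 300 bp, 33.4% were missing with a gap of at most 1 kb and 60.8% beyond 100 kb. Of peaks over 300 and up to 500 bp, 16.0% and 27.9% were. Above 500 bp few were missing at either distance, 5 of 262 close peaks and 0 of 61 distant ones. Of the 2148 close siNC peaks, 582 (27.1%) lay under a siCHD3 peak that covered several and so were kept by definition. Of the other 1566, 476 were missing (30.4%, interval 28.1 to 32.7), a share that leaves out kept peaks only. At the lowest siNC background, 21% of close and 70% of distant peaks were missing, and above it 22.2% and 43.4%. With peaks over 1 kb left out of both lists, which takes partners from close siNC peaks, 46.4% of close peaks and 46.1% of those beyond 100 kb were missing, and the order was no longer seen. In siNC peaks with a chance of at least 0.9 of a call, the shares were 8.32% and 13.3%. The close share was 9.64% where any siCHD3 peak within 1 kb counted as a partner and 45.2% at −log10 q of 10 in each list.

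Added peaks were crowded. Their median gap to the nearest other siCHD3 peak was 9009 bp, against 17500 bp for shared peaks. Of the siCHD3 peaks with another within 1 kb, 57.9% were added (interval 56.4 to 59.5), against 34.4% from 1 to 10 kb, 26.7% from 10 to 50 kb and 27.8% beyond 100 kb. Above the lowest background 51.7% were added within 1 kb and 16.8% beyond 100 kb. At the lowest background most were added at both distances, 86.0% and 79.7%. Within widths, 65.3% of close siCHD3 peaks up to 300 bp were added and 29.6% of distant ones, and of those over 500 bp 45.6% and 29.7%. Where any siNC peak within 1 kb counted as a partner, which takes added peaks from crowded places by construction, 39.7% of close peaks were added.

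**Figure D2:**
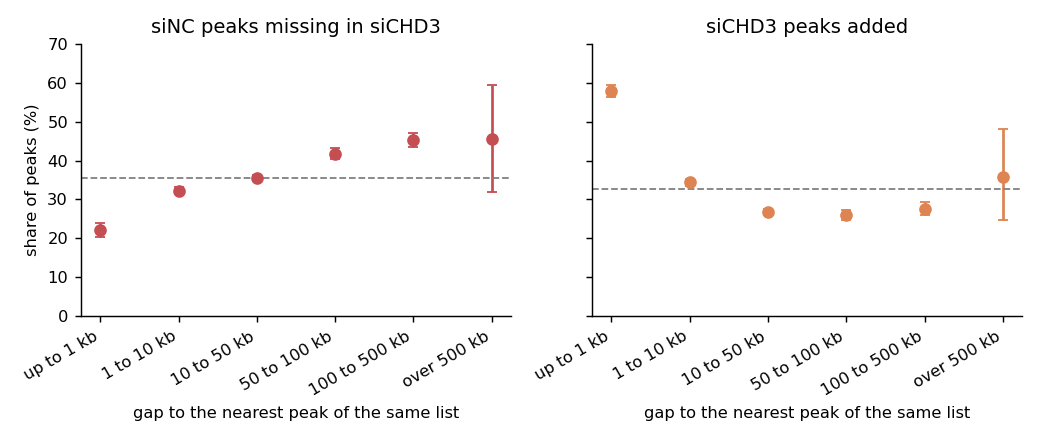
Share of siNC peaks missing (left) and of siCHD3 peaks added (right), in percent, by the gap to the nearest peak of the same list, with exact 95% intervals and the whole-list share as a dashed line (35.4% and 32.6%). Missing shares are higher at larger gaps, from 22.2% to 45.5%, and added shares are highest at gaps up to 1 kb (57.9%).

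Close neighbouring siCHD3 peaks were more often both added than all neighbouring pairs. Over all adjacent pairs at any distance, 13.0% were both added in siCHD3 and 13.5% both missing in siNC. Of the 2203 adjacent siCHD3 pairs at most 1 kb apart, 892 (40.5%) were both added, 810 held 1 added peak and 22.7% held none. Single siCHD3 peaks with another within 1 kb were added in 57.9%, and whether pairs exceed what that share gives was not tested. Of the 1130 such siNC pairs, 104 (9.20%) were both missing and 744 (65.8%) had both kept. Beyond 100 kb the order was the opposite: 7.81% of siCHD3 pairs were both added and 17.2% of siNC pairs were both missing.

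The siCHD4 and siCHD5 lists were set against the same siNC list. Close peaks were added more often than the whole list in siCHD4, as in siCHD3, and by little in siCHD5. Of their peaks with a neighbour of the same list within 1 kb, 36.1% were added in siCHD4 and 10.6% in siCHD5, against 57.9% in siCHD3. In the same order of lists, the shares added were 16.8%, 9.41% and 32.6% over the whole lists, and beyond 100 kb 13.9%, 11% and 27.8%. Added peaks over 500 bp were 6.43% of added peaks in siCHD4 and 0.946% in siCHD5, against 13.0% in siCHD3, and series of 5 or more consecutive added peaks numbered 25, 8 and 191. Lowest backgrounds were 1.06 fragments in siCHD4 and 1.95 in siCHD5, so coverage also differed among these lists, and its part was not tested. For missing peaks, siCHD4 gave 28.6% at gaps up to 1 kb and 51.0% beyond 100 kb, the same order as in siCHD3, and siCHD5 gave the opposite order, 37.5% and 22.7%.

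Few missing peaks had a siCHD3 peak of any kind within 1 kb. Such a peak lay within 1 kb of 425 missing peaks (3.31%), and an added one within 1 kb of 152 (1.18%). Of all siCHD3 peaks, 32.6% were added, and whether missing peaks lay nearer to added or to shared ones was not tested. The median distance from a missing peak to the nearest added one was 96816 bp. To the nearest siCHD3 peak of any kind the median was 24990 bp, with 27.8% of missing peaks within 10 kb and 14.3% beyond 100 kb. Added peaks lay closer to the control list. Their median distance to a siNC peak was 16357 bp, 876 (7.82%) were within 1 kb, 37.9% within 10 kb and 6.84% beyond 100 kb. Added shares were also higher where few siNC peaks lay within 500 kb. Of siCHD3 peaks with 1 to 5 of them, 44.6% were added (interval 42.0 to 47.2), and of those with over 40, 27.2% (interval 24.2 to 30.3). This count includes the siNC partner of a shared peak, so low counts favour added peaks by construction. Median pileups in the 2 classes were 9 and 18 fragments, and 28.4% and 12.2% stood at the lowest background. The part of pileup and background was not tested. A further 15 siCHD3 peaks had no siNC peak within 500 kb and were added by definition.

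**Figure D3:**
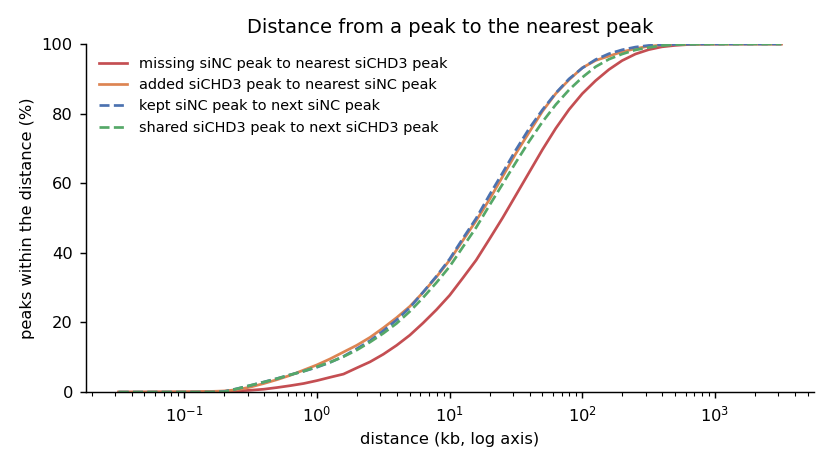
Cumulative percentage of peaks whose nearest peak lies within a given distance (kb, log axis), for missing siNC peaks to the siCHD3 list and added siCHD3 peaks to the siNC list (solid), and for kept and shared peaks to the next peak of their own list (dashed). The curve of missing peaks lies to the right (27.8% within 10 kb) and that of added peaks (37.9%) near the dashed curves.

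Most missing and added peaks were not in long series. Taken in order along each chromosome, 5028 missing peaks (39.1%) had kept neighbours on both sides, and 176 series of 5 or more consecutive missing peaks held 8.00% of them. Of the added peaks, 4155 (37.1%) stood alone and 191 series of 5 or more held 10.1%. The longest missing series, 14 peaks, ran over 11.8 Mb from chr16:34625840 to 46398349, across the centromere. A single distance between consecutive summits made up 11135913 bp of this, and 2 siCHD3 peaks lay inside the series. Its median distance between consecutive summits was 2959 bp, and its median fold was 1.51 on a median background of 475 fragments. Those of 11 peaks, on chromosome 13 from 22212478 to 23733678 and on chromosome 19 from 36768839 to 37786606, covered 1.52 and 1.02 Mb, with median summit distances of 69476 and 17763 bp. Their median backgrounds were 6.04 and 3.20 fragments, and 1 and 6 siCHD3 peaks lay inside them.

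The longest added series were short along the chromosome. Those of 15 peaks each lay on chromosome 1 from 228755957 to 228778958 (23 kb), on chromosome 1 from 148255982 to 148325248 (69.3 kb) and on chromosome 4 from 9246737 to 9365692 (119 kb). Their median distances between consecutive summits were 1280, 3944 and 2690 bp, and 1, 1 and 4 siNC peaks lay inside them. A series of 10 added peaks at chr8:86743024-86767628 covered 24.6 kb with a median summit distance of 1811 bp. Another 10 lay on chromosome 22 from 41469568 to 41769783 and 10 on chromosome 4 from 2512963 to 2951925, with median summit distances of 14329 and 9604 bp. The 3 series of 15 peaks and the one on chromosome 8 had median folds from 3.55 to 5.54, around the added median of 4.85.

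The first of these series lies in the tandem array of 5S ribosomal RNA genes, a repeat transcribed by RNA polymerase III, and that locus was chosen after its values were seen. The siCHD3 list held 24 peaks there, 21 of them added, from 228744759 to 228781829, and the siNC list held 5 peaks, of which 2 were missing. The added folds ran from 3.36 to 7.88 with a median of 5.54, against a median of 4.85 over all added peaks. Within their own list, the siNC folds ran from 2.58 to 3.78. Folds of the 2 lists stand on different backgrounds and are not compared. Counts in the other lists were 9 in siMBD3, 8 in siCHD4, 2 in siCHD5 and 1 in siMBD2. Reads of a tandem repeat can map to several copies, and how such reads were treated is not given in the sources used here.

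Among places named for CTCF in the literature, 12 windows were examined, placed on hg19 from general knowledge and not from an annotation. Together they held 125 siNC peaks, of which 50 were missing (40%), and 110 siCHD3 peaks, of which 38 were added (34.5%). The clustered protocadherin genes, where CTCF and cohesin join enhancers to the promoter of the isoform a cell expresses, held the most missing peaks. The siNC list held 33 peaks there and 24 were missing (72.7%, interval 54.5 to 86.7). Without this window, 26 of 92 peaks in the other 11 were missing (28.3%).

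The missing protocadherin peaks had low pileups. Their folds ran from 3.82 to 9.29 and overlapped those of the 9 kept peaks, while their median summit pileup was 30 fragments against 56 in the kept ones. In this window 3 siNC peaks had a chance of at least 0.9 of a call at the siCHD3 coverage, and 0 of these 3 were missing. A series of 9 consecutive missing peaks covered 91.7 kb from 140705636 to 140797294, with folds from 4.18 to 8.19. It lay between strong kept peaks, at 140699650 to 140700224 (fold 9.44) and at 140800378 to 140800707 (fold 8.10). The siCHD3 list held 1 peak inside this series, an added one at 140749643 to 140749869. The strongest missing peak of the window was chr5:140248289-140248652, with fold 9.29 and a pileup of 38 fragments. In siCHD3, a single peak of 1786 bp with fold 24.4 covered 2 kept siNC peaks, of 1084 and 575 bp. The siCHD3 list held 12 peaks in the window, 4 of them added, with folds from 4.15 to 7.61. Among the other lists, siCHD5 held 26 peaks there (lowest background 1.95 fragments), siMBD2 16 (0.640), siCHD4 12 (1.06) and siMBD3 11 (0.374).

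**Figure D4:**
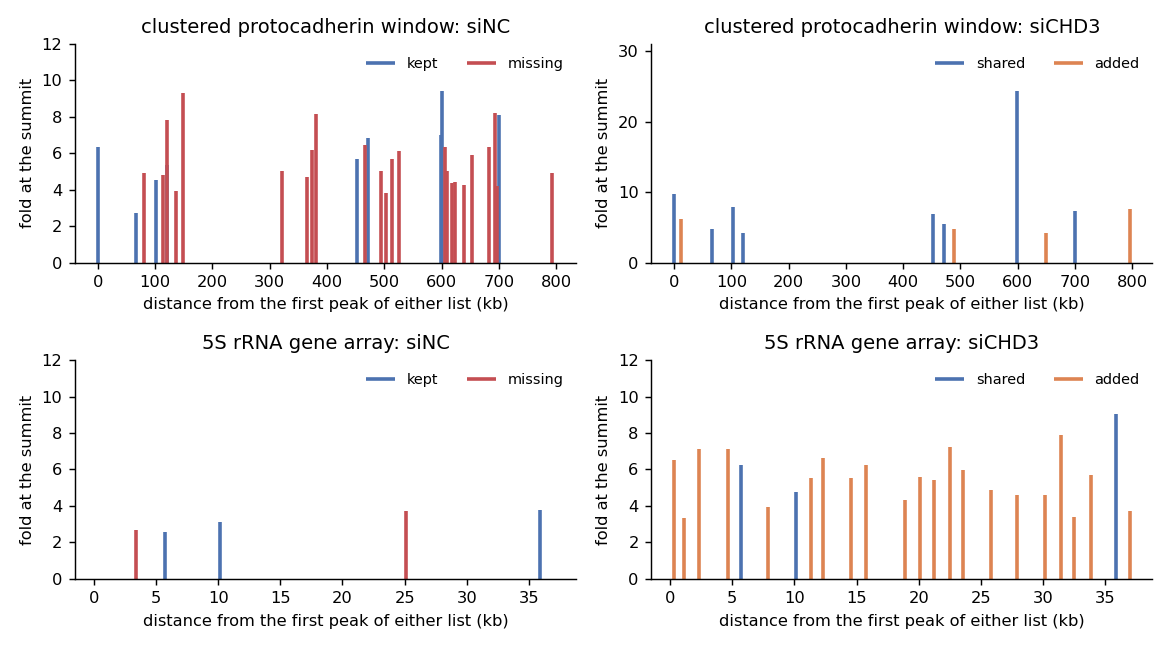
Fold at the summit of each peak in the clustered protocadherin window (top) and the 5S ribosomal RNA array (bottom), for siNC (left) and siCHD3 (right), against the distance in kb from the first peak of either list, with a separate fold axis per panel. In the protocadherin window 24 of 33 siNC peaks are missing, and in the 5S array 21 of 24 siCHD3 peaks are added.

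Genes of the 4 HOX clusters set position along the body axis, and CTCF sites divide their chromatin. The clusters held 32 siNC peaks, 10 missing, and 36 siCHD3 peaks, 15 added. The share missing was 28.6% in HOXB and 33.3% in each of HOXA, HOXC and HOXD. Each interval was wide and included the 35.4% of the whole list, as in HOXA (7.49 to 70.1) and HOXB (8.39 to 58.1). The added share of the whole list was 32.6%, and added shares per cluster have no interval here. In HOXA, 3 of 9 siNC peaks were missing, among them chr7:27235832-27236199 with a pileup of 137 fragments and fold 5.64. A siCHD3 peak of 1122 bp with fold 14.3 was added at 27202271 to 27203392, and the kept peak at 27210534 was 227 bp wide in siNC and 1097 bp in siCHD3. In HOXD, the peak at chr2:176991753-176992112 was missing, with a siNC pileup of 156 fragments and fold 7.51, while the strongest peak, chr2:177065673-177066111, was kept at nearly the same width (439 and 442 bp). The siCHD3 list added 4 peaks in HOXD, led by 176981747 to 176982298 with fold 12.5. HOXC had 3 siNC peaks, 1 of them missing, and 4 added siCHD3 peaks of fold 5.04 to 10.5. HOXB had 14 peaks in each list, 4 missing and 5 added.

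At the imprinted H19-IGF2 locus, where CTCF binds the unmethylated maternal control region, 2 of 7 siNC peaks were missing (28.6%, interval 3.67 to 71.0). The missing peak at chr11:2021079-2021278 had fold 5.30 and a pileup of 20 fragments. The neighbouring peak at 2023755 to 2024332 was kept and measured 578 bp in siNC and 264 bp in siCHD3. At the alpha-globin genes 2 of 4 siNC peaks were missing (50.0%, interval 6.76 to 93.2). At the beta-globin genes the only siNC peak (5226138 to 5226347, fold 5.00) was missing (interval 2.5 to 100). A siCHD3 peak was added there at 5262283 to 5262669 (fold 8.16 in its own list). Each of these intervals included the 35.4% of the whole list.

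The KCNJ2-SOX9 and EPHA4-PAX3 windows hold long gene-poor stretches, and the wide intervals of their missing shares included the 35.4% of the whole list. Between KCNJ2 and SOX9, 4 of 16 siNC peaks were missing (interval 7.27 to 52.4), and the strongest, chr17:69617080-69617492 (fold 11.1), was kept. Of the 6 added peaks there, 3 lay between 68455936 and 68460215. Between EPHA4 and PAX3, whose domain boundaries are known from limb malformations, 4 of 11 siNC peaks were missing (36.4%, interval 10.9 to 69.2), 3 of them between 222889700 and 222917858. The strong kept peak chr2:222826597-222828496 had nearly the same width in both lists, 1900 bp in siNC and 1930 bp in siCHD3. In the MHC class II region, 3 of 19 siNC peaks were missing (15.8%, interval 3.38 to 39.6). Of 21 siCHD3 peaks there, 6 were added, the strongest at chr6:32982585-32982891 with fold 11.1. A kept siNC peak of 198 bp at 32944053 to 32944250 faced a siCHD3 peak of 1168 bp with fold 45.1. At CHD3 itself, the gene targeted, both siNC peaks were kept and 3 siCHD3 peaks were added. Their folds were 3.31, 4.76 and 5.44, against a median of 4.85 over all added peaks.

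By megabase, most places held both kinds. Of 2877 bins of 1 Mb with a peak, 2762 held a missing peak, 2507 an added one and 2419 both. The bin with the most missing peaks was chromosome 5 from 140 to 141 Mb, which holds the protocadherins (28 of 43, with 9 of 23 siCHD3 peaks added), followed by chromosome 19 from 42 to 43 Mb (21 of 48). Chromosome 16 from 46 to 47 Mb (20 of 36) had a median fold of 1.46 at its missing peaks on a background of 558 fragments. The bins with the most added peaks were chromosome 16 from 30 to 31 Mb (35 of 68), chromosome 1 from 228 to 229 Mb (31 of 51), chromosome 19 from 10 to 11 Mb (29 of 58) and chromosome 5 from 69 to 70 Mb (28 of 37). On chromosome 8 from 86 to 87 Mb both were many, 20 of 35 siNC peaks missing and 28 of 43 siCHD3 peaks added. Chromosome 6 from 30 to 31 Mb, inside the MHC, held 27 added peaks of 38, with a median width of 409 bp.

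Whole chromosomes differed less in added than in missing share. The missing share ran from 29.6% on chromosome 1 (interval 28.1 to 31.2) to 46.6% on chromosome 18 (interval 42.7 to 50.6), with 43.4% on chromosome 13 and 41.4% on chromosome 4. The added share ran from 30.3% on chromosome 6 to 38.4% on chromosome 16 (interval 35.6 to 41.2). Pileup moved with the missing share, with a median siNC summit of 68 fragments on chromosome 1 and 46 on chromosome 18. Among siNC peaks with a chance of at least 0.9 of a call, chromosome 18 still had the highest share, 40 of 155 missing (25.8%, interval 19.1 to 33.4), and chromosome 1 the lowest, 7.36% (interval 6.07 to 8.82). Of the added peaks, 62.5% on chromosome 18 and 61.3% on chromosome 19 stood at the lowest background of the list, against 17.2% on chromosome 1.

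**Figure D5:**
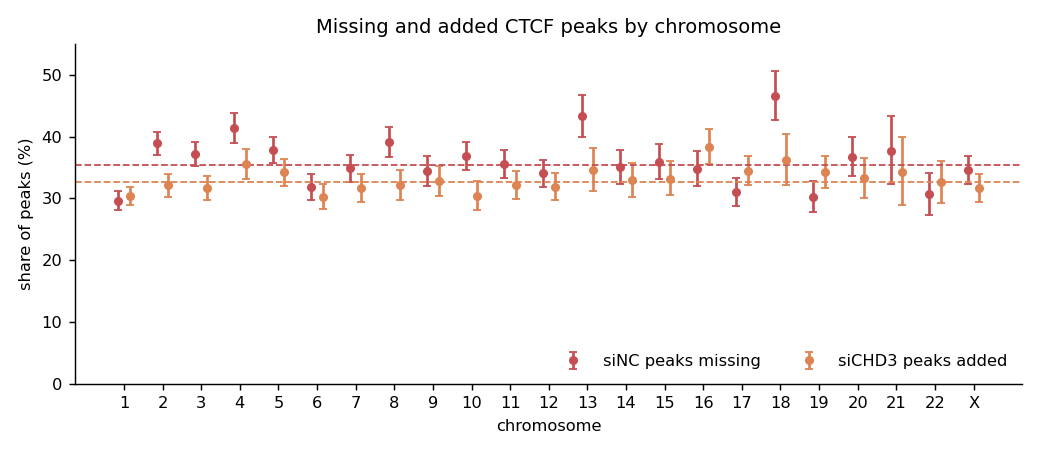
Share of siNC peaks missing and of siCHD3 peaks added on each chromosome, in percent, with exact 95% intervals and the whole-list shares as dashed lines. Missing shares range from 29.6% (chromosome 1) to 46.6% (chromosome 18) and added shares from 30.3% (chromosome 6) to 38.4% (chromosome 16).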

How the data were processed

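The submitters' processing notes name bedtools 2.25.0, Bowtie2 2.3.4, deepTools 3.5.0, FastQC 0.11.7, MACS2 2.1.2, SAMtools 1.9 and the hg19 build. What each did and with which settings is not given in the sources used here. Analysis started from the deposited narrow-peak lists, which pool 3 replicates per condition, as their names state, and single replicates were not used here. The columns used were the authors' fold, a ratio at the summit over local background, and, as deposited, −log10 p and −log10 q. The deposited score was not used. Lines of the same start and end were joined as 1 peak, with the summit of highest fold.

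For each peak, the fold, read as (pileup + 1) / (background + 1), and the p, read as a Poisson tail probability, together gave the summit pileup and the local background. In every list a whole-number pileup reproduced p to within 0.01% at 100% of peaks. The lowest background stands for coverage, which depends on depth and fragment length. A siNC pileup was thinned binomially to the siCHD3 coverage for its chance of a call, with equal enrichment in both lists assumed. Peaks within 1% of the lowest value counted as at the lowest background. Gaps, distances and widths are in bp.

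Members, lists, windows and alternatives were chosen with earlier results of these data known. The 5S array and 6 alternatives were added after these values were seen. The peaks named were the strongest 10 missing and 10 added with no peak of the other list within 1 kb, the 5 strongest kept, the 5 widest of each kind, the 5 longest series and the 5 fullest bins, of which the leading ones are printed, and some others in the windows. They include peaks singled out after their values were seen. No genome or annotation of hg19 was used here, so genes, motifs and sequences at the peaks were not analysed here. Calculations were made with matplotlib 3.10.9, numpy 2.4.6, pandas 2.3.3, Python 3.11.15 and scipy 1.17.1, and the classing and pileup solution were tested on simulated data.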

Additional observations from a re-analysis of the deposited data

Results flagged for a closer look

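Outside chromosomes 1 to 22 and X, which no comparison above uses, the siCHD3 list held 1037 peaks and the siNC list 585. The peaks on alternative haplotype contigs numbered 779 in siCHD3 and 365 in siNC. Of the 1037 siCHD3 peaks, 550 (53.0%) had no siNC peak overlapping them, and of the 585 siNC peaks, 77 (13.2%) had no siCHD3 peak. Most of the siCHD3 peaks without a partner, 455, were on haplotype contigs.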

How the results depend on the processing

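No paired analysis was possible because each list pools its replicates, and for the same reason no replicate could be left out. Each value of the 8 results was recomputed under the alternatives, 41 in all. Of these, 31 moved a value beyond its counting interval, which is narrow at these numbers, and 10 did not. Missing peaks were narrower than kept ones and close siCHD3 peaks were added more often than distant ones under each setting run. Added peaks, narrower than shared ones at 276 against 280 bp, were wider at −log10 q of 10 (462 against 303 bp), and both medians were 279 bp without the lowest background. Without peaks over 1 kb, close siNC peaks were missing as often (46.4%) as distant ones (46.1%). The share missing of 35.4% was 41.4% and 59.1% at −log10 q of 5 and 10 in each list, 40.8% with reciprocal overlap of 50%, 38.6% with summits within 100 bp, 34.3% with any peak within 1 kb, 34.6% with lists of equal length, 11.9% in peaks with a chance of at least 0.9 and 38.0% without peaks over 1 kb. The share added of 32.6% was 18.9% and 18.3% at the thresholds on q, 37.4% with reciprocal overlap, 35.1% both with summits within 100 bp and with lists of equal length, 30.1% with any peak within 1 kb and 33.2% on all contigs. Added after the data were seen, it was 26.7% without siCHD3 peaks that had a neighbour within 10 kb and 24.4% without those at the lowest background. The missing median width of 259 bp was 302 bp at −log10 q of 10, 341 bp in peaks with a chance of at least 0.9 and 262 bp without peaks over 1 kb. Beyond 100 kb, 45.3% were missing, and 69.5% at −log10 q of 10 and 13.3% in peaks with a chance of at least 0.9. The close share of 22.2% was 45.2%, 8.32% and, with any peak within 1 kb, 9.64%. Within 1 kb, 57.9% were added, and 42.8% at −log10 q of 10, 39.7% with any peak within 1 kb, 60.5% without peaks over 1 kb and 51.7% without the lowest background. Added peaks within 10 kb of a siNC peak were 33.5% at −log10 q of 10, and missing peaks within 10 kb of a siCHD3 peak 14.4%, or 28.7% without peaks over 1 kb. The threshold on q in both lists removes weak partners as well as weak peaks. For the other differences the cause was not tested. Coverage, read from the lowest background, was lower in siCHD3 (0.445 fragments) than in siNC (2.96), and the median summit of added peaks was 7 fragments. The part of coverage in these differences was not tested.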
